A study of Mus musculus with 13 samples.

Results

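With earlier results of these data known, 10 retinoic acid signalling and meiotic entry genes were taken by symbol from the 55335 genes counted. They are the meiotic gatekeeper *Stra8*, the BMP-dependent factor *Zglp1*, the retinoic acid receptors *Rara*, *Rarb* and *Rarg*, the retinoid X receptors *Rxra* and *Rxrb*, the retinoic acid-clearing enzymes *Cyp26a1* and *Cyp26b1*, and the binding protein *Crabp1*. The study asked whether the glucocorticoid receptor (GR, gene *Nr3c1*) shapes gene expression in fetal oocytes, and for these genes the questions are what is left of the meiotic entry programme at E17.5 and whether loss of GR moved it. GFP-positive germ cells were sorted from the ovaries of single female embryos at E17.5, and 1 3′ Tag-Seq library was made per embryo, 13 in all. All embryos carried the Oct4-GFP transgene Tg(Pou5f1-EGFP)2Mnn. In the constitutive cross, WT embryos (n = 3) had intact GR and KO embryos (n = 3) were homozygous for the GR KO allele in every cell of the body. In the conditional cross, flox embryos (n = 3) were homozygous for a GR allele with a floxed exon 3, and cKO embryos (n = 4) also carried the tamoxifen-inducible Cre of the *Pou5f1* locus, so that recombination was directed to germ cells and other *Pou5f1*-expressing cells present at that time. Dams of both flox and cKO embryos had received 125 μg tamoxifen per g at E10.5, whereas tamoxifen was no part of the constitutive cross. The crosses therefore differ in tamoxifen, alleles and litters at once, and these cannot be told apart where flox is set against WT.

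Retinoic acid is made from retinol by dehydrogenases, is held in the cytoplasm by CRABP proteins and is destroyed by CYP26 enzymes. In the nucleus it binds RAR proteins, which sit on DNA as heterodimers with RXR proteins and swap corepressors for coactivators when the ligand arrives. In the fetal ovary, *Stra8* is switched on for a short time as germ cells leave the mitotic cycle, together with its partner MEIOSIN, while ZGLP1 acts downstream of BMP signals in the oogenic programme. The genes for the cohesins, the synaptonemal complex and recombination that come on at this step stay in use through meiotic prophase.

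The promoters of *Stra8*, *Rarb* and *Cyp26a1* are shown because *Stra8* is the member whose counts differed most between libraries and because the others hold the classic retinoic acid response element. They are RefSeq windows on GRCm38.p6, each from 250 bases before to 50 bases after the annotated start and written 5′ to 3′ on the strand of the gene. Capitals mark a direct repeat of a half-site with 5 bases between (DR5) or, for *Stra8*, which has none, the half-sites themselves.
Stra8: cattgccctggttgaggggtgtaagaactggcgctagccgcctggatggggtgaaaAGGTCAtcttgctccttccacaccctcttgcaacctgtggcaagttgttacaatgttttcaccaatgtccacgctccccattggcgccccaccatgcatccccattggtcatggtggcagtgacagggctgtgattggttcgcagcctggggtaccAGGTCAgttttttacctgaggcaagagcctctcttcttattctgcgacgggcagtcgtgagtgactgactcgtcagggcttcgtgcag
Rarb: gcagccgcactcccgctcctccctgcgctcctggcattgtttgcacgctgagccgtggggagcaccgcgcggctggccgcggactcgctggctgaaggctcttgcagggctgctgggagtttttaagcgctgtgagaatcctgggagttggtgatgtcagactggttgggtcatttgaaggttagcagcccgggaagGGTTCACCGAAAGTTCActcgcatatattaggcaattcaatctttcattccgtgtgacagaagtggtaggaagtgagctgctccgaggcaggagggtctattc
Cyp26a1: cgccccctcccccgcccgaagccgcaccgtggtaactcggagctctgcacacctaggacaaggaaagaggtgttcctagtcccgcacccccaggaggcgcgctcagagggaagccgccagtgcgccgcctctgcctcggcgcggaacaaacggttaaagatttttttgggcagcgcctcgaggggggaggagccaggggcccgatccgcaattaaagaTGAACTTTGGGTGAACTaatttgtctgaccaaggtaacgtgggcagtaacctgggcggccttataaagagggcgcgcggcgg
The *Stra8* window lies at chr6:34920698-34920997 on the plus strand, that of *Rarb* at chr14:16575427-16575726 on the minus strand and that of *Cyp26a1* at chr19:37697558-37697857 on the plus strand. A half-site was taken as AGGTCA or AGTTCA or GGGTCA or GGTTCA, searched on both strands, and every DR5 also counts as a pair of half-sites. The *Stra8* window held 2 half-sites, from -194 to -189 and from -38 to -33 relative to the start, and neither a DR5 nor a DR2, the same repeat with 2 bases between. The DR5 of *Rarb* lay from -53 to -37 and that of *Cyp26a1* from -32 to -16. Of the 32851 windows of this length, 43.7% held a half-site, 0.0974% a DR5 and 0.268% a DR2. All 10 members had a window, 16 in total because some have several starts, and 8 of these 16 windows held a half-site, 2 a DR5 and 0 a DR2. The 8 windows belong to 7 members. A match is a description of the letters in the window and says nothing of binding in these cells.

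Between 2048706 and 3674989 reads per library fell on genes, so that 1 count was worth 0.272 to 0.486 CPM and the floor set by 3 counts was 0.816 to 1.46 CPM. CPM here is the count relative to the TMM-scaled library size, a level of 3′ tags that is not divided by gene length. In every library, reads of fetal oocyte markers exceeded those of each other cell type listed. All 10 markers of fetal oocytes had counts in every library and summed to between 9163 and 12390 CPM, while the 10 pregranulosa markers summed to between 44.4 and 98.8 CPM. Of the oocyte markers, *Sycp1* gave 3048 to 6698 CPM and is also an entry programme gene. Erythroid markers reached 1323 CPM in flox replicate 1, and stroma, mesothelium and mesonephros markers 382 CPM in cKO replicate 4. *Nr3c1* itself was read at 44.6 ± 14.84 CPM in WT and 44.6 ± 25.26 CPM in KO (SD, n = 3 each), and at 65.8 ± 33.31 CPM in flox (n = 3) and 52.6 ± 18.03 CPM in cKO (n = 4). Its 3′ tags lie outside the deleted exon 3, so these levels do not check the deletion. In sorted bulk libraries, fewer cells that express a gene and less of its RNA per cell cannot be told apart.

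Of the 10 members, 8 had a count in at least 1 library, 5 had counts in all 13, and 6 passed the filter on low counts and were tested (*Stra8*, *Rara*, *Rarg*, *Rxra*, *Rxrb* and *Crabp1*). *Rxrb* had the highest mean level at 54.8 CPM over the 13 libraries and was the highest member in 12 of them, the exception being flox replicate 1, where *Stra8* stood above it. *Rxra*, *Crabp1* and *Stra8* followed with means of 14.6, 14.1 and 13.1 CPM. The first of these was above the second in only 5 of 13 libraries, and the mean of *Stra8* rested on few libraries (SD 37.8 CPM), so the order among them is not separated by the spread. *Rara* averaged 7.57 CPM, and *Rarg* and *Rarb* averaged 1.98 and 1.80 CPM with SDs of 2.80 and 1.98 CPM, which does not separate them either. *Cyp26b1* was above 0 in 1 library, and *Zglp1* and *Cyp26a1* were at 0 in all 13. The plot of member levels shows how unevenly the low members were spread over libraries.

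**Figure D1:**
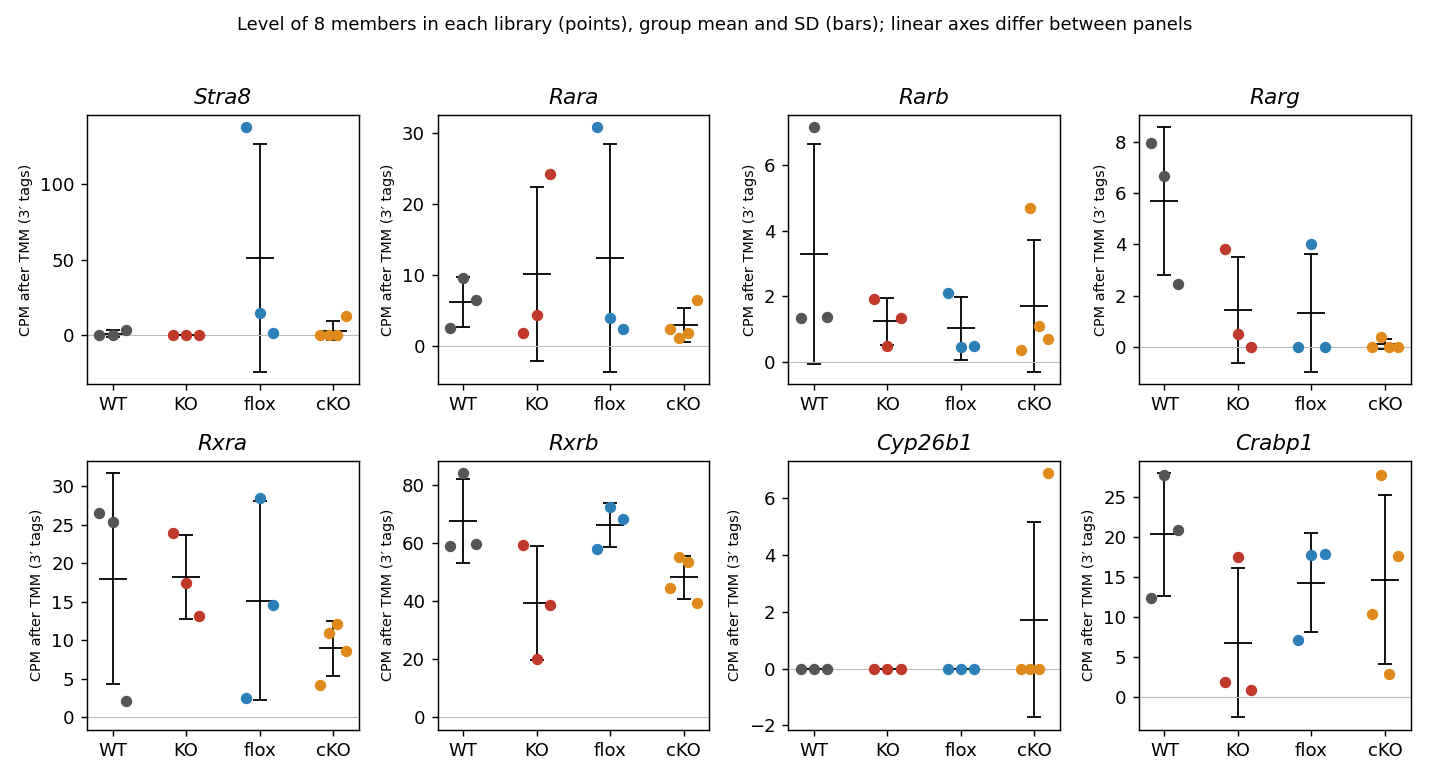
Level of the 8 members with any count in each library. Each point is 1 library (CPM of 3′ tags after TMM, linear axes that differ between panels), grouped as WT, KO, flox and cKO, and black bars give the group mean and SD; *Rxrb* had counts in every library between 19.9 and 84.1 CPM, whereas *Stra8* was at 0 in 8 of 13 and reached 138 CPM in flox replicate 1.

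*Stra8* (ENSMUSG00000029848.11, chr6:34920163-34939344 of mm10), which licenses entry into meiosis, was read at 0, 0 and 14 counts in the WT libraries, at 0 in all 3 KO libraries, at 326, 33 and 3 in the flox libraries, and at 0, 0, 0 and 38 in the cKO libraries. In CPM these are 1.27 ± 2.20 in WT (SD, n = 3), 51.3 ± 75.2 in flox (n = 3) and 3.278 ± 6.557 in cKO (n = 4). Thus 2 of the 3 WT libraries, all 3 KO libraries and 3 of the 4 cKO libraries held no *Stra8* read, the 3 flox libraries all held some, and the groups overlapped in both crosses. With all KO libraries at 0, the mean of WT was 0.972 times the floor of 3 counts per KO library, so no fold between WT and KO can be given. Against flox, the cKO level differed by -3.94 on the log2 scale (SE 1.74, 95% CI -7.55 to -0.33) with an edgeR quasi-likelihood p of 0.0337 and an adjusted p of 1, and the exact two-sided permutation test over the 7 libraries gave p = 0.171. The value rests on single libraries. It was -1.28 without flox replicate 1 and -9.99 without cKO replicate 4, and the adjusted p lay between 0.574 and 1 over all alternatives.

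Flox replicate 1, the library with the most *Stra8*, also held the most reads of erythroid genes. Of the 7 erythroid markers 5 had counts, and they summed to 1323 CPM in that library against 380 and 282 CPM in the other flox libraries, 76.9 to 191 CPM in cKO, 90.8 to 238 CPM in WT and 0 to 152 CPM in KO. *Hbb-y* and *Alas2* were at 0 throughout, the latter lying wholly inside another gene. The same library had the highest *Rara* and *Bmp2* counts of all 13 (73 and 59). It had the lowest level of 6 of the 33 tested entry programme genes, among them *Sycp1* and *Smc1b*, and the highest of 2, while cKO replicate 1 had the lowest level of 10. Whether the red cell reads and the *Stra8* reads are related was not tested. All 3 tested erythroid genes had an unadjusted edgeR p under 0.05 with lower values in cKO than in flox, as did 1.87% of all genes. Flox also stood above WT for *Stra8* (log2 difference 5.19, SE 2.08, adjusted p = 1 by edgeR, exact permutation p = 0.2). It was the 1 member of 6 with an unadjusted p under 0.05 in that comparison, where 3.06% of all 13086 genes had such a p.

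*Zglp1* (ENSMUSG00000079681.3, chr9:21062393-21067093), the GATA-like zinc finger factor of the oogenic programme, had no count in any library. Its interval is covered to 99.9% by the annotated gene *Gm49373*, including 493 of its last 500 bases, where 3′ tags fall. All 1250 protein-coding genes wholly covered by another gene had 0 counts in all libraries, against 11% of those partly covered and 30.6% of those with no overlap. The zeros of *Zglp1* are therefore no measurement of its expression.

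No count was found for *Cyp26a1* (ENSMUSG00000024987.6, chr19:37697798-37701536) in any of the 13 libraries, and no other gene overlaps it. Each library allows a level of up to 0.816 to 1.46 CPM, counting error only. *Cyp26b1* (ENSMUSG00000063415.12, chr6:84571414-84593908), which clears retinoic acid from the fetal testis, was likewise at 0 in 12 libraries and had 20 counts (6.90 CPM) in cKO replicate 4. The mean of cKO was 1.28 times the floor of 3 counts per flox library. Its best known source is gonadal somatic cells, and cKO replicate 4 had the highest sum of the 11 stroma, mesothelium and mesonephros markers (382 CPM, against 73.0 to 292 CPM in the other 12). Of these 11 markers 9 had counts, with *Pax2* and *Tcf21* at 0, 1 of which is wholly covered by other genes. The summed level was 155 to 382 CPM in cKO, 133 to 292 CPM in flox, 122 to 177 CPM in WT and 73.0 to 136 CPM in KO. Pregranulosa and endothelial markers were not highest in cKO replicate 4, at 87.0 and 71.8 CPM against 98.8 and 81.2 CPM in cKO replicate 2. The part of somatic cells in the *Cyp26b1* reads was not tested.

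*Crabp1* (ENSMUSG00000032291.8, chr9:54764748-54773110), which carries retinoic acid in the cytoplasm, had 28, 58 and 77 counts in WT and 5, 36 and 2 in KO. Replicates 1 and 3 of KO lay below every WT library, and KO replicate 2 lay among them. The level was 20.4 ± 7.68 CPM in WT and 6.76 ± 9.32 CPM in KO (SD, n = 3 each). The fitted difference was -1.59 on the log2 scale (SE 1.17, 95% CI -4.00 to 0.82, adjusted p = 0.962 by edgeR), and -3.82 without KO replicate 2. In the conditional cross the counts were 17, 40 and 37 in flox and 30, 71, 8 and 51 in cKO, a fitted difference of 0.04 (SE 1.06, 95% CI -2.16 to 2.23). That interval still allows a 4-fold change in either direction.

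Among the receptors, *Rxrb* (ENSMUSG00000039656.17, chr17:34031812-34038399), the partner of RAR proteins on DNA, was the one measured well in every library. It stood at 58.8, 84.1 and 59.6 CPM in WT and at 59.3, 19.9 and 38.7 CPM in KO. The highest KO library lay inside the WT range and the other two below it. In the conditional cross it stood at 57.9, 72.4 and 68.4 CPM in flox and at 44.7, 55.1, 53.6 and 39.3 CPM in cKO, so that every cKO library was below every flox library. The log2 difference was -0.78 (SE 0.47, 95% CI -1.75 to 0.20) in the constitutive cross and -0.46 (SE 0.44, 95% CI -1.36 to 0.44) in the conditional cross. Neither passed the test (adjusted p = 0.903 and 1 by edgeR), and the exact permutation test gave p = 0.2 and p = 0.0571, where the smallest p these designs allow are 0.1 and 0.0286. Its average over both comparisons was -0.62 (SE 0.32, 95% CI -1.28 to 0.045, adjusted p = 0.903 by edgeR).

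*Rxra* (ENSMUSG00000015846.15, chr2:27676440-27762957) had 60, 53 and 8 counts in WT, 63, 36 and 30 in KO, 6, 64 and 30 in flox, and 12, 28, 33 and 25 in cKO. Its groups overlapped in both crosses, with 1 low library each in WT and flox. The log2 differences were 0.02 (SE 1.08) and -0.76 (SE 1.01). *Rara* (ENSMUSG00000037992.16, chr11:98927818-98974942), the receptor found in most tissues, had 6, 20 and 24 counts in WT, 5, 9 and 55 in KO, 73, 9 and 5 in flox and 7, 3, 5 and 19 in cKO. The highest libraries were flox replicate 1 and KO replicate 3, 1 in each condition of GR. Its log2 difference was 0.70 (SE 1.49) in the constitutive cross and -2.03 (SE 1.40) in the conditional cross, and became -0.99 without KO replicate 3 and -0.10 without flox replicate 1.

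*Rarg* (ENSMUSG00000001288.15, chr15:102234938-102257517) had 18, 14 and 9 counts in WT and 10, 1 and 0 in KO. In the conditional cross flox replicate 2 held 9 counts and cKO replicate 2 held 1, and the other libraries were at 0. It was thus above the floor in all 3 WT libraries and in 2 of the other 10. The log2 differences of -1.95 (SE 2.28) and -3.27 (SE 2.17) did not pass the test, and the second became 1.55 without flox replicate 2. *Rarb* (ENSMUSG00000017491.9, chr14:16430839-16819156), the receptor that retinoic acid itself induces, had 1 to 15 counts per library and failed the filter. Its last 500 bases are wholly covered by *Top2b*, so tags from there are not in its counts. The remaining gene of the family, *Rxrg*, had 0 to 14 counts with 6 libraries above 0.

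Over the 6 tested members, 0 were called at an adjusted p of 0.05 or less by edgeR in KO against WT, where 0% of the 13086 genes tested were called, and 0 in cKO against flox, where 0% were called. DESeq2 called 12 and 5 genes in these comparisons and limma voom 0 and 0, with 0 members among them. An unadjusted edgeR p under 0.05 was found for 0 of 6 members in KO against WT, beside 5.82% of all genes, and for 1 of 6, *Stra8*, in cKO against flox, where 3.19% of all genes had such a p and 1.87% had it with a lower value in cKO. The libraries of the groups did not overlap for 0 of 6 members in KO against WT (9.46% of all genes) and for 1 of 6, *Rxrb*, in cKO against flox (4.97% of all genes, and 2.79% with cKO below flox). For the average of both comparisons 1 of 6 members had p under 0.05, *Stra8*, beside 5.34% of all genes, and for their difference 0 of 6, beside 4.39%. Counts this small are not separated from these shares. The average of *Stra8* also takes in its fit of KO against WT, for which no fold can be given since all KO libraries were at 0. The median log2 difference of the tested members was -1.18 in the constitutive cross, or -0.39 with *Stra8* set at its bound, and -1.39 in the conditional cross, beside -0.03 and -0.01 for all genes. The plot of fold changes shows that these medians come from estimates whose intervals nearly all span 0.

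**Figure D2:**
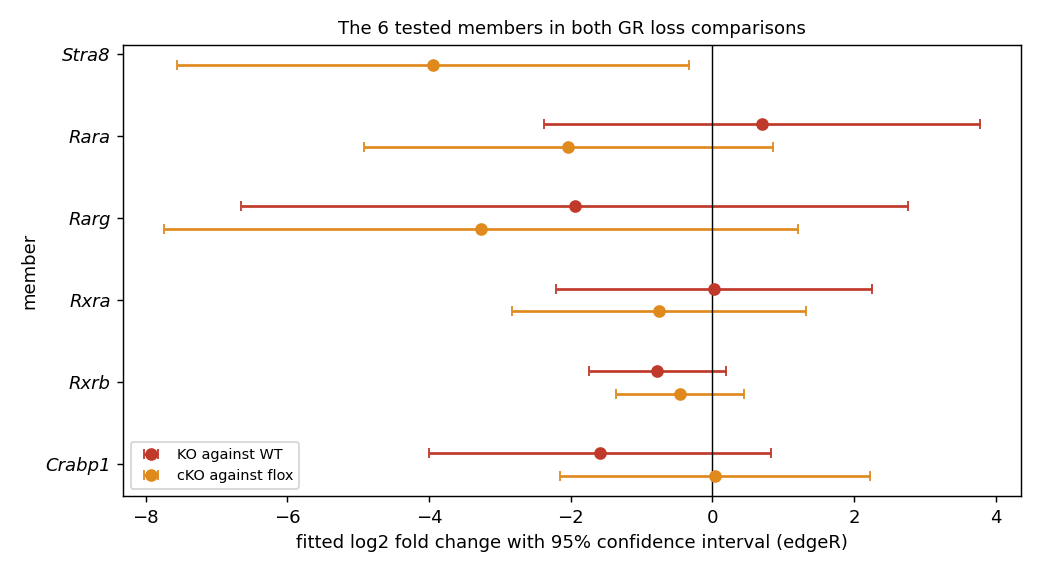
Fitted log2 fold change of the 6 tested members (points) with 95% confidence intervals (bars) in the constitutive cross in red and in the conditional cross in orange; the KO value of *Stra8* is not drawn, since all KO libraries were at 0. The interval of *Stra8* in the conditional cross, from -7.55 to -0.33, is the only one drawn that does not reach 0, and those of *Rxrb* are the narrowest.

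The summed level of the 10 members was 96.8 to 160 CPM in WT and 60.3 to 92.7 CPM in KO, and 105 to 238 CPM in flox and 62.0 to 99.9 CPM in cKO, so that neither pair of groups overlapped. Without *Rxrb* the ranges became 37.3 to 76.4 and 33.4 to 40.4 CPM, and 36.9 to 180 and 17.3 to 53.5 CPM, and both pairs overlapped. Without *Stra8*, which gave 138 of the 238 CPM in flox replicate 1, the flox range became 101 to 127 CPM and neither pair overlapped. The separation of the sums thus depended on *Rxrb*. The sums are given without a test. Among single genes, the libraries of the groups did not overlap for 9.46% in KO against WT and 4.97% in cKO against flox. The 5 endothelial markers, all with counts in some library, also summed to less in every KO library (2.43 to 25.5 CPM) than in every WT library (31.0 to 40.6 CPM), and to 43.5 to 62.2 CPM in flox and 42.6 to 81.2 CPM in cKO, and their part in the member sums was not tested.

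By the likeness of log2 CPM over the 13 libraries, the tested genes closest to *Stra8* were *Gm41492* (Pearson r = 0.93), *Hic1* (0.927) and *Gm10561* (0.914), each at 0 in 9 libraries and with at most 45 counts. Those closest to *Rxrb* were *Nfic* (0.908), *Slc28a1* (0.902) and *Hdac8* (0.896). These were picked as the highest of 13085 genes and are descriptions of the same libraries.

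Retinol uptake, storage and synthesis genes were measured next to the members, and are drawn with them in the plot of the pathway by role. Of 14 such genes, 11 had counts, 3 had counts in every library and 8 were tested. Of these 8, 0 were called and 0 had an unadjusted edgeR p under 0.05 in either comparison. Over all genes, 5.82% had such a p in KO against WT and 3.19% in cKO against flox. Among the 14 listed genes, 1 of those without counts is wholly covered by other genes. Another, *Adh1*, has its last 500 bases covered by another gene, so tags from there are not in its counts. The most abundant were *Adh5*, a broadly expressed alcohol dehydrogenase, at 49.9 to 170 CPM, and *Rdh10*, which oxidises retinol to retinal, at 19.4 to 119 CPM. The retinal dehydrogenases were lower. *Aldh1a1* had 0 to 143 counts, *Aldh1a2* 4 to 89, and *Aldh1a3* none, and *Dhrs4* had 0 to 72 counts. The median log2 difference of the 8 tested genes was 0.34 in the constitutive cross and -0.29 in the conditional cross. Among the binding and clearance genes beside the members, *Crabp2* had 1 to 27 counts, *Fabp5* 1 count in 1 library and *Cyp26c1* none.

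**Figure D3:**
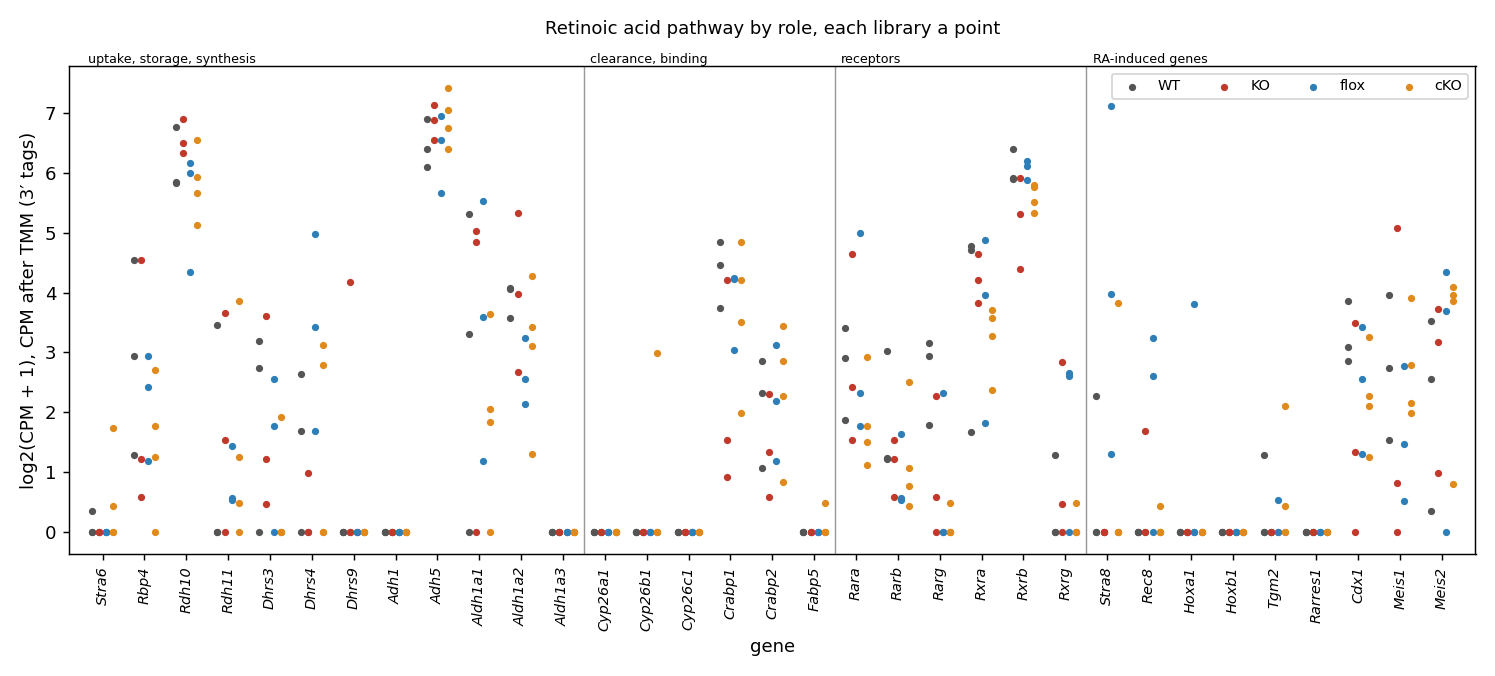
Retinoic acid pathway genes by role on log2(CPM + 1), with 3′ tag CPM after TMM and each library a point coloured by group; some listed genes, among them those wholly inside another gene, are left out. *Adh5*, *Rdh10* and *Rxrb* have counts in all 13 libraries and lie above nearly all other points, the 3 *Cyp26* genes lie at 0 in all libraries but 1, and among RA-induced genes *Cdx1*, *Meis1* and *Meis2* are above 0 in 12 of 13 libraries.

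Genes that retinoic acid induces in many tissues had few counts. Of 18 listed, 13 had counts, 2 had counts in every library and 6 were tested, and 1 of those without counts is wholly covered by other genes. The most abundant beside the members were the TALE homeobox genes *Meis2* (0 to 42 counts) and *Meis1* (0 to 68) and the caudal homeobox gene *Cdx1* (0 to 50), and *Dhrs3*, a retinal reductase, had 0 to 23. None was called, and *Stra8* was the 1 gene with an unadjusted edgeR p under 0.05 in cKO against flox, beside 3.19% of all genes. The median log2 difference was -0.50 in the constitutive cross, or -0.05 with *Stra8* at its bound, and -0.11 in the conditional cross.

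In contrast with the ligand side, all 15 corepressors and coactivators of nuclear receptors had counts in every library and were tested. Together they summed to between 1781 and 2771 CPM. *Crebbp*, a histone acetyltransferase, was the highest at 381 to 716 CPM, followed by *Tbl1x* and *Ncor1* of the NCoR corepressor complex at 76.2 to 556 and 99.2 to 308 CPM, and *Gps2*, a subunit of the same complex, at 128 to 269 CPM. Of these 15 genes 0 were called. With unadjusted edgeR p under 0.05, *Nrip1*, a ligand-dependent corepressor, was at 85.2 against 40.1 CPM in KO and WT but 48.2 against 68.45 CPM in cKO and flox, *Med1*, a Mediator subunit, at 196 against 115.5 CPM in the latter pair, and *Ncoa2*, a coactivator, at 105 against 166 CPM in that pair too. Their adjusted p were 0.847, 1 and 1 by edgeR. The acetyltransferase gene *Ep300*, next in order, stood at 120 against 192 CPM in KO and WT, with every KO library below every WT library (adjusted p = 0.849 by edgeR). The KO and WT libraries did not overlap for 9.46% of all genes, in either direction. An unadjusted edgeR p under 0.05 was found for 5.82% of all genes in that comparison and 3.19% in cKO against flox. For *Med1*, WT and KO averaged 219 and 237 CPM, and every flox library lay below every WT library. *Ncoa2* averaged 162 CPM in WT and 153 CPM in KO. The medians of the 15 were 0.01 and -0.06 on the log2 scale.

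The BMP branch, which feeds *Zglp1*, was read unevenly among its response genes. Of 20 genes 19 had counts, 12 had them in every library and 17 were tested. *Id1*, *Id3* and *Id2*, inhibitors of bHLH factors and classic BMP targets, were read at 1335 to 2699, 525 to 1050 and 216 to 829 CPM, and the common SMAD *Smad4* at 149 to 463 CPM. Other genes that BMP signals induce were low. The inhibitory SMAD genes *Smad6* and *Smad7* averaged 7.32 and 4.26 CPM, each with counts in 10 libraries, the homeobox gene *Msx1* averaged 1.92 CPM, and *Msx2* had 1 count in 1 library, all named after their values were seen. *Id3* was higher in all 3 KO than in all 3 WT libraries (904.5 against 607 CPM, log2 difference 0.57, SE 0.28, adjusted p = 0.847 by edgeR). The KO and WT libraries did not overlap for 9.46% of all genes. In the conditional cross *Id3* overlapped, at 568.8 to 1003 CPM in cKO and 568.3 to 830.9 CPM in flox. The ligand *Bmp2* had 0, 3 and 51 counts in WT and 0 in all KO libraries, and 59, 0 and 45 in flox and 0, 2, 0 and 0 in cKO. The 7 GR-deficient libraries thus held 2 counts together, but each control group also had a library at or below 3 counts. The WT mean was 3.91 times the floor of 3 counts per KO library. Its unadjusted edgeR p was under 0.05 in both crosses, and its adjusted p was 0.847 and 1. The exact permutation test gave p = 0.4 and p = 0.143, and the groups overlapped in both crosses. *Smad9*, a BMP receptor-regulated SMAD, had 1, 7 and 0 counts in WT and 71, 9 and 9 in KO, but 36, 20 and 12 in flox and 1, 0, 11 and 1 in cKO. The median of the 17 was 0.07 in the constitutive cross and -0.14 in the conditional cross.

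Most listed genes of the meiotic entry programme had reads at E17.5. Of 37 listed genes 34 had counts, 31 had counts in every library and 33 were tested, and together they summed to between 14460 and 23960 CPM. *Sycp1*, the transverse filament of the synaptonemal complex, was read at 3048 to 6698 CPM, *Smc1b*, a meiotic cohesin subunit, at 2794 to 5976 CPM, *Tex15*, needed for recombination, at 2475 to 4350 CPM, and *Dazl*, the RNA-binding licensing factor, at 934 to 1909 CPM. On this scale of 3′ tags, 29 of the 37 genes had a higher mean than *Stra8*, and 32 without flox replicate 1, where the mean of *Stra8* fell to 2.75 CPM. The plot of the entry programme ranks them all.

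**Figure D4:**
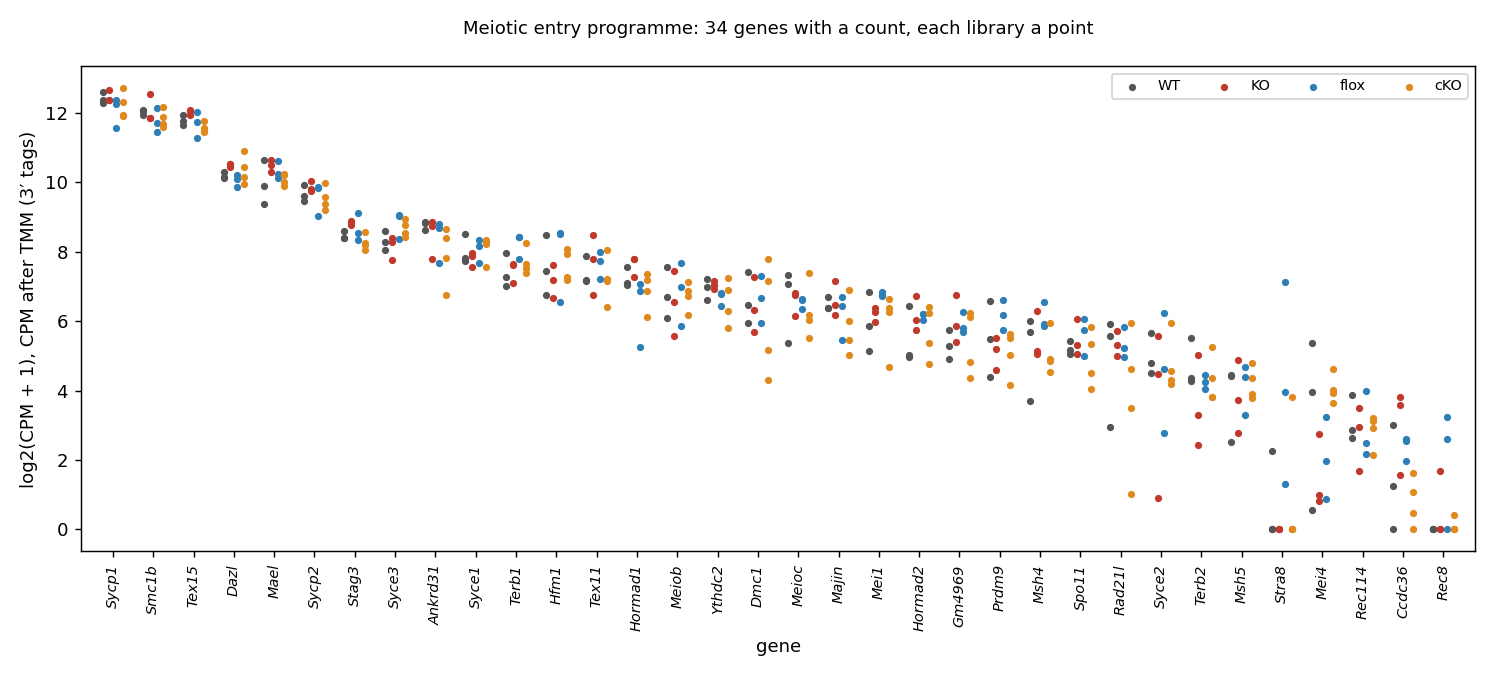
The 34 meiotic entry genes with any count, ordered by mean level, on log2(CPM + 1) with 3′ tag CPM after TMM. Each point is a library coloured by group; *Sycp1*, *Smc1b* and *Tex15* lie within 2475 to 6698 CPM in all 13 libraries, while *Stra8* and *Rec8*, at 0 in 8 and 9 of 13 libraries, scatter at the low end.

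*Gm4969*, the gene for the STRA8 partner MEIOSIN, was named after its values were seen, and had 57 to 219 counts with 13 of 13 libraries above 0, and lay above *Stra8* in 12 of 13. It stood at 40.1 CPM in WT, 68.2 in KO, 60.7 in flox and 47.3 in cKO. *Rec8*, a meiotic cohesin subunit also named afterwards, had 0 to 19 counts and was at 0 in 9 libraries. Its counts were 12 and 19 in flox replicates 1 and 2, 5 in KO replicate 3 and 1 in cKO replicate 4. *Stra8* and *Rec8* were both above 0 in 3 libraries. *Zglp1*, *Sycp3* and *Tex12* were at 0, the last pair wholly covered by other genes, so that nothing can be read from them.

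No gene of this programme was called by edgeR in either comparison. With unadjusted edgeR p under 0.05, there were 0 of 33 genes in KO against WT, beside 5.82% of all genes. In cKO against flox there was 1 of 33, *Stra8*, beside 3.19% of all genes. The genes next in order were *Mei4*, a break-formation factor, at 2.48 against 18.6 CPM in KO and WT, and in cKO and flox *Prdm9*, the hotspot methyltransferase, at 35.5 against 73.35 CPM and *Msh4*, a crossover factor, at 35.1 against 69.97 CPM. Their adjusted p were 0.847, 1 and 1 by edgeR. *Mael*, a transposon-silencing factor, averaged 1430 against 1076 CPM in KO and WT, whose libraries overlapped. The libraries also overlapped for *Mei4*, at 0.76, 0.97 and 5.72 CPM in KO and 14.6, 0.48 and 40.8 CPM in WT. For *Msh4*, cKO replicate 2 at 61.3 CPM lay above flox replicates 2 and 3. For *Prdm9*, every cKO library was below every flox library, as for 2.79% of all genes. *Mei4* stood the other way in the conditional cross, at 16.1 CPM in cKO against 4.07 CPM in flox. The median log2 difference of the 33 genes was 0.09 in the constitutive cross and -0.25 in the conditional cross.

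Factors that hold back meiotic entry were described in the same way. Of 19 genes 13 had counts and were tested, and 6 were at 0 in all libraries. These were *Nanos2* and *Dnd1*, RNA-binding factors of germ cells, and *Nodal*, *Lefty1*, *Lefty2* and *Tdgf1* of the NODAL pathway. *Cbx1*, a heterochromatin protein, was read at 818 to 1815 CPM, *Mga* and *Rnf2* of the variant Polycomb complex at 206 to 399 and 82.2 to 314 CPM, and *Pcgf6* of the same complex at 51.98 to 188.2 CPM. *Max*, the partner of MGA, was at 66.9 to 219 CPM and *E2f6* at 0.442 to 24.6 CPM. *Uhrf1*, which maintains DNA methylation, was higher in all 3 KO than in all 3 WT libraries (109.5 against 58.25 CPM, log2 difference 0.91, SE 0.37, adjusted p = 0.847 by edgeR) and was at 105 against 85.3 CPM in cKO and flox (adjusted p = 1). The KO and WT libraries did not overlap for 9.46% of all genes. None of the 13 was called, and their medians were 0.25 and 0.17 on the log2 scale.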

How the data were processed

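Sorted *Pou5f1*-GFP+ germ cells of 13 female E17.5 embryos were profiled by QuantSeq 3′ Tag-Seq. The authors trimmed adapters with cutadapt, aligned reads to mm10 with STAR 2.6.0 and counted reads per gene with featureCounts 1.6.3 (versions from the submitters' processing notes), and deposited raw counts with 1 column per embryo. Annotation release and strand setting are not given in the sources used here. The lengths in the table equal whole gene intervals, and genes lying wholly inside another gene have no counts. The authors' comparison tables hold log2 fold changes, p-values and adjusted p-values of their own edgeR and limma fits, and were not used.

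Groups came from the sample labels. Genes were named by GENCODE M21 (54587 of 55335 by identifier, 567 more without its version, *Rxra* among these, and 181 not at all). Genes passing filterByExpr (minimum count 10, minimum total 15) numbered 13086. All 13 libraries entered 1 edgeR 4.0.16 quasi-likelihood fit in R 4.3.3 with TMM scaling and a mean per group, without covariates, and p-values were adjusted by Benjamini-Hochberg over all genes tested and called at 0.05 or less. Intervals are 95% confidence intervals of that fit. Single members and *Bmp2* were also tested by exact two-sided permutation of libraries on log2 CPM (prior count 2), with 20 or 35 divisions. A floor of 3 counts per library stands in for groups at 0. The reads carry no stated molecular identifiers, so floors cover counting error only, and p-values measure the spread between embryos.

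One gene of the pathway lists, counted with them, is not reported here by name. The alternatives were RLE factors, library totals, DESeq2 1.42.0, limma 3.58.1 voom, other filters, fits of only the groups compared, a replicate block and each library left out. The fit was tested on simulated data. The members, gene lists and tests were chosen with earlier results of these data known. Named genes are the members, *Nr3c1*, and in each list up to 4 genes of highest mean CPM and up to 2 of lowest p in each comparison, with markers and the 3 genes most like *Stra8* and *Rxrb*. Promoters came from RefSeq (GRCm38.p6), 32851 windows of 27025 genes.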

Additional observations from a re-analysis of the deposited data

Results flagged for a closer look

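In the cKO group, the group of 4 libraries, 1 library stood apart from the other 3 by more than Dixon's critical value at the 95% level for 12 of the 54 genes checked. Chance alone marks about 1 in 20 such groups if values are normally spread. That rate does not hold for counts near 0, so the 12 cannot be set against it. Most of the 12 genes were at or near 0 in the other libraries, where a single count is enough. Among the members, *Stra8* was at 13.1 CPM in cKO replicate 4, *Cyp26b1* at 6.90 CPM in the same library, and *Rarg* at 0.390 CPM in cKO replicate 2, with the other 3 libraries at 0 in each case. The value of 0.390 CPM is 1 count. Single counts also marked *Rxrg* and *Fabp5* (0.390 CPM each, cKO replicate 2) and *Rec8* (0.345 CPM, cKO replicate 4), and 2 counts marked *Bmp2* (0.781 CPM, cKO replicate 2). *Dhrs3* stood apart at 2.77 CPM in cKO replicate 1 and *Smad9* at 4.04 CPM in cKO replicate 3, which was the low library for *Meis2* (0.734 CPM) and *Ncoa2* (57.6 CPM). *Mga* was highest in cKO replicate 2 at 399 CPM.

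*Smad9* lay in opposite directions in the crosses. Every KO library was above every WT library (log2 difference 3.21, SE 1.97) and every cKO library below every flox library (log2 difference -3.02, SE 1.74), a difference of -6.23 between the crosses. That difference had an unadjusted edgeR p under 0.05 and an adjusted p of 1, and thus failed the correction over all genes. The libraries of the groups did not overlap for 9.46% of all genes in KO against WT and for 4.97% in cKO against flox.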

How the results depend on the processing

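No member was called under any alternative. Of the log2 differences of the tested members, 1 changed sign under a setting other than leaving out a library: *Crabp1* in cKO against flox was -0.23 with limma voom and -0.37 with the replicate block. Counts of called genes over the whole table moved more. DESeq2 called 12 genes in KO against WT, 5 in cKO against flox, 14 for their average and 10 for their difference. Without a filter on low counts these were 15, 11, 17 and 8, and 15 for flox against WT, and with at least 10 counts in every library 1 gene was called for the average and 0 for flox against WT, a setting that leaves *Rxrb* as the only member with a value. The causes were not tested. With the replicate number as a block, 4, 3, 3 and 2 genes were called in the first 4 comparisons and *Stra8* in cKO against flox was -9.61 (adjusted p = 0.574 by edgeR). Same-numbered libraries deviated together with correlations of only -0.0232 to 0.0636. Flox replicates 1 and 2 correlated best with their own number, and the other control libraries did not. Whether same-numbered libraries share more than a number cannot be told from such weak correlations. Leaving out each of the 13 libraries, genes called ranged from 0 to 2 in KO against WT and from 1 to 3 in flox against WT, both highest without WT replicate 3, and stayed at 0 in the other comparisons. The log2 difference of cKO against flox ranged from -9.99 to -1.28 for *Stra8*, -2.75 to -0.10 for *Rara*, -4.79 to 1.55 for *Rarg*, -1.26 to 0.074 for *Rxra*, -0.55 to -0.37 for *Rxrb* and -0.46 to 0.39 for *Crabp1*. For KO against WT it ranged from -0.99 to 1.19 for *Rara*, -4.31 to -1.38 for *Rarg*, -0.50 to 0.41 for *Rxra*, -1.20 to -0.46 for *Rxrb* and -3.82 to -1.07 for *Crabp1*. *Stra8* in KO against WT could not be fitted without WT replicate 3, since all remaining libraries of both groups were at 0. With 1 count worth up to 0.486 CPM, a level below about 1.46 CPM in a library was not separated from 0 at this depth. Larger differences between groups were not called either, as for *Crabp1* at 20.4 CPM in WT and 6.76 CPM in KO.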
